A study of Mus musculus with 15 samples.

Results

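Mitochondrial ribosomal protein genes were taken as the gene names beginning with Mrpl or Mrps and a digit, without names marked as pseudogenes, which gave 78 of the 15258 genes listed. Of these, 49 carry the Mrpl prefix of the large subunit and 29 the Mrps prefix of the small subunit. Left ventricles of male C57BL/6NRj mice were profiled by BRB-seq, a bulk assay that barcodes each RNA sample and counts the 3′ ends of its transcripts. The groups were transverse aortic constriction (TAC, a surgical narrowing of the aorta that loads the left ventricle with pressure) with neuregulin-1β from a minipump (TAC NRG), TAC with saline from a minipump (TAC saline) and sham surgery with saline from a minipump (sham saline), with 5 libraries each. Neuregulin-1β is a growth factor that signals through ERBB receptors, and the study asked how it affects the pressure-loaded heart. No sham group with NRG was analysed here, and the sources used here give no dose, time or age. The labels do not state separate mice for the libraries, so p-values measure only the spread between samples, which may be technical.

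The mitochondrial ribosome translates the few messages of the mitochondrial genome, which encode core subunits of the respiratory chain and ATP synthase. Its ribosomal RNAs are encoded in mitochondrial DNA, whereas all of its proteins are encoded in the nucleus, made in the cytosol and imported. Some of these proteins descend from bacterial ribosomal proteins and others were added in the mitochondrial lineage. The heart depends on oxidative phosphorylation, and inherited defects of several human mitochondrial ribosomal proteins, among them MRPL3, MRPL44, MRPS14 and MRPS22, cause cardiomyopathy.

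Library depth was 2.02 to 5.62 M reads. TAC NRG replicates 4 and 5 were the shallowest, with 2.02 and 2.13 M reads, and had the highest haemoglobin shares, 0.366% and 0.350% of reads, against 0.0888% to 0.222% in the other libraries. Levels are given as CPM, read counts scaled by library as the authors deposited them, and log2 differences are limma estimates with their standard error (SE). Rose and fell are used where the Benjamini-Hochberg adjusted p over 11018 tested genes was under 0.05. In this bulk tissue, fewer cells of a type and less RNA per cell cannot be told apart. Ventricular cardiomyocyte markers, all 7 of which were listed, summed to 55077 to 68076 CPM in TAC NRG, 53979 to 65024 CPM in TAC saline and 58816 to 64870 CPM in sham saline. Within that list Tnni3, Ryr2 and Pln fell and Actc1 rose in TAC saline against sham, with a median log2 difference of -0.22 over the 7 genes. In TAC NRG against sham Myh6, Tnni3, Ryr2 and Pln fell and Actc1 rose, with a median of -0.30, and in TAC NRG against TAC saline Tnnt2 rose, with a median of 0.10. The atrial markers Myl7 and Myl4 together stayed at 2.02 to 5.69 CPM in all libraries. Other measures also moved with the groups. Mitochondrially encoded genes took 25.8% ± 2.35 of reads in TAC NRG, 27.7% ± 1.62 in TAC saline and 31.1% ± 0.47 in sham saline (SD, n = 5 each). The 5 fibroblast markers summed to 1404 to 2409 CPM in TAC NRG, 1145 to 1978 CPM in TAC saline and 878 to 956 CPM in sham saline, and the 5 blood markers to 1703 to 3488, 980 to 1474 and 905 to 2222 CPM in the same groups. Of the fibroblast markers, 3 rose in TAC saline and 4 in TAC NRG against sham, and all 5 blood markers rose in TAC NRG against both other groups. The 4 endothelium markers summed to 292 to 349 CPM in TAC NRG, 341 to 415 CPM in TAC saline and 324 to 363 CPM in sham saline, and Cdh5 fell in TAC NRG against TAC saline. The 4 macrophage markers summed to 79.0 to 127 CPM in TAC NRG, 93.8 to 146 CPM in TAC saline and 72.4 to 109.5 CPM in sham saline, and Adgre1, Cd68 and C1qa rose in TAC saline and Cd68 and C1qa in TAC NRG against sham. The part of these shifts in the results on ribosomal protein genes was not tested.

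Of the 78 members, 76 had enough reads to be tested, 48 with the Mrpl and 28 with the Mrps prefix. The exceptions were Mrpl53, a small protein of the large subunit, and Mrps18b, a small subunit protein. Mrpl53 averaged 0.915 ± 0.418 CPM in TAC NRG, 1.15 ± 0.642 CPM in TAC saline and 0.654 ± 0.394 CPM in sham saline (SD, n = 5 each). Mrps18b averaged 1.51 ± 0.642, 1.25 ± 0.682 and 1.27 ± 0.736 CPM in the same groups. Both had fewer than 10 reads in every library and were not tested.

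The 3′-end levels of these genes in sham hearts ran from 6.57 to 422.2 CPM, a 64.3-fold range with a median of 60.7 CPM. A 3′-end count does not grow with transcript length, but it can depend on how a gene's 3′ end is annotated. The range was 56.7-fold among Mrpl and 39.2-fold among Mrps genes, and the medians were 59.3 and 64.6 CPM. The highest gene was Mrpl30, a large subunit protein of bacterial type, with 456 ± 83.0 CPM in TAC NRG, 347 ± 36.6 CPM in TAC saline and 422.2 ± 17.6 CPM in sham saline (SD, n = 5 each). It was followed by Mrpl42, a mitochondria-specific protein, with 337 ± 49.6, 316 ± 41.6 and 374 ± 18 CPM, and by Mrpl28 with 199.8 ± 10.5, 204 ± 21.4 and 239 ± 13 CPM. Mrpl30 was the highest Mrpl gene in 14 of 15 libraries and Mrpl42 in the other, so the order of this pair held against the library spread.

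In the small subunit, Mrps24, Mrps23 and Mrps35 led in sham hearts. Mrps24 was the highest Mrps gene in 14 of 15 libraries and Mrps23 in the other. The 3 highest genes supplied 25.5% of the summed Mrpl level and 27.3% of the summed Mrps level. At the low end, Mrps18c, one of 3 paralogues related to a single bacterial protein, averaged 7.33 ± 2.10 CPM in TAC NRG, 5.49 ± 1.61 CPM in TAC saline and 6.57 ± 1.77 CPM in sham saline (SD, n = 5 each). Mrpl23 averaged 6.96 ± 3.28, 5.18 ± 1.01 and 7.45 ± 1.33 CPM, Mrps33 8.39 ± 1.99, 8.30 ± 2.66 and 8.82 ± 1.22 CPM, and Mrpl22 11.95 ± 2.72, 11.8 ± 2.87 and 11.8 ± 1.95 CPM in these groups. Among these 4 low genes the ranges of neighbours overlapped, and the 26 genes under 50 CPM in sham hearts had correspondingly few reads.

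**Figure D1:**
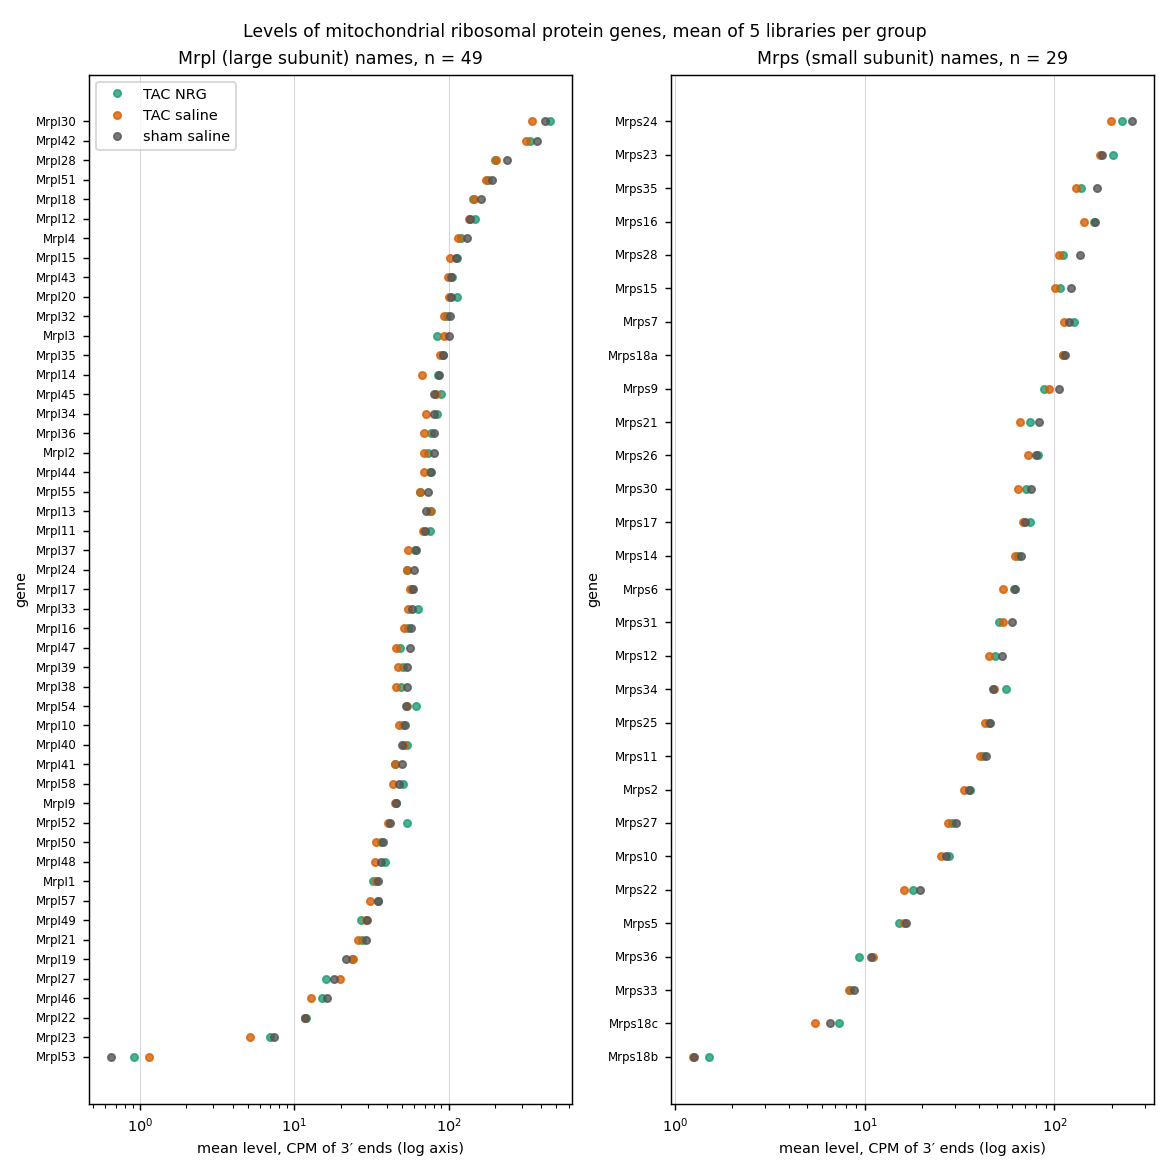
Mean level of each mitochondrial ribosomal protein gene (CPM of 3′ ends, log axis) in TAC NRG, TAC saline and sham saline hearts, 5 libraries each, ordered by the sham level with Mrpl genes on the left and Mrps genes on the right. The 76 tested genes span 6.57 to 422.2 CPM in sham hearts, and for most genes the points of the 3 groups lie close together compared with that span.

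Under constriction without NRG, the changes that passed the test were all decreases. Of the 76 tested genes, 6 fell and 0 rose in TAC saline against sham saline, and over all genes tested 4.24% fell and 6.47% rose. The 6 were Mrps28, Mrps35, Mrps24, Mrps15 and Mrps21 of the small subunit and Mrpl14 of the large subunit. The log2 difference was below 0 for 68 of the 76 genes, against 50.9% of all genes, and its median was -0.14 with a range of -0.53 to 0.17, against a median of -0.01 over all genes. Scaled by total reads alone, 3 fell and the median was -0.030, against a median of 0.10 over all genes. Leaving out 1 library gave 3 decreases without sham saline replicate 2 or 5 or TAC saline replicate 1 or 5, 10 without TAC NRG replicate 3 and 12 without TAC saline replicate 3. Over all genes, 1180 passed in either direction with all libraries and 1269 under total reads alone. The fits with 3 decreases after leaving out 1 library had 635 to 947. Without TAC NRG replicate 3 it was 1351, and without TAC saline replicate 3 it was 1495. The members share libraries and need not vary independently, so the member counts describe the group and are not a test of it.

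Mrps28, a small subunit protein of bacterial type, had 110.3, 116.9, 121.7, 89.4 and 92.2 CPM in TAC saline, against 132.6, 147.1, 134.5, 135.6 and 131.5 CPM in sham saline. Every TAC saline library lay below every sham library. limma gave a log2 difference of -0.37 ± 0.09 (SE), with an adjusted p of 0.00709.

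Mrps35, a mitochondria-specific small subunit protein, had 125.9, 136.1, 156.7, 113.9 and 118.4 CPM in TAC saline, against 171.8, 164.2, 175.9, 163.7 and 160.2 CPM in sham saline. TAC saline replicate 3 came closest to the sham range, and the groups did not overlap. It fell by 0.37 ± 0.09 (SE) on the log2 scale, with an adjusted p of 0.0117 in limma.

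Mrps24, whose bacterial counterpart lines the channel where mRNA enters the ribosome, had 193.3, 214.1, 218.3, 186.8 and 184.8 CPM in TAC saline, against 257.6, 252.6, 276.7, 255.2 and 244.9 CPM in sham saline. The groups were again separate. This was a log2 difference of -0.37 ± 0.09 (SE), with an adjusted p of 0.0124 in limma. The decreases of Mrps24, Mrps28 and Mrps35 passed the test under each of the 25 alternative settings, with adjusted p in limma of at most 0.0459, 0.0331 and 0.0437.

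Mrps15, related to a bacterial protein that binds the small subunit RNA early in assembly, had 99.6, 108.1, 98.2, 99.5 and 94.9 CPM in TAC saline, against 113.1, 131.8, 117.5, 118.5 and 128.2 CPM in sham saline. The highest TAC saline library lay just under the lowest sham library. It fell by 0.28 ± 0.08 (SE) on the log2 scale, with an adjusted p of 0.0235 in limma. Without sham saline replicate 2 or 5 or TAC saline replicate 1 or 5 the adjusted p in limma was 0.0527 to 0.0708, with total reads alone as scaling it was 0.152, and with libraries thinned to equal depth 0.0704.

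Mrps21, a small protein of bacterial type, had 60.9, 74.4, 75.3, 57.5 and 60.7 CPM in TAC saline, against 85.1, 81.6, 81.2, 86.5 and 80.0 CPM in sham saline. The TAC saline libraries fell into a higher pair, replicates 2 and 3, and a lower trio, all below sham. The log2 difference was -0.34 ± 0.10 (SE), with an adjusted p of 0.0348 in limma. Leaving out any one sham library or TAC saline replicate 1, 4 or 5 gave an adjusted p of 0.0512 to 0.0981 in limma, and total reads alone as scaling, a replicate block or thinning to equal depth gave 0.0568 to 0.130.

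Mrpl14, a large subunit protein at the interface with the small subunit and the binding site of the assembly factor Malsu1 in human ribosomes, had 65.8, 62.6, 91.6, 59.2 and 59.8 CPM in TAC saline, against 77.1, 88.8, 95.2, 86.5 and 89.6 CPM in sham saline. TAC saline replicate 3 lay within the sham range and the other TAC saline libraries lay below it. It fell by 0.38 ± 0.11 (SE) on the log2 scale, with an adjusted p of 0.0279 in limma. Without TAC saline replicate 1, 2, 4 or 5 or sham saline replicate 2, 3 or 5 the adjusted p was 0.0550 to 0.0899 in limma, and with total reads alone as scaling it was 0.0978. Malsu1 itself averaged 51.0 ± 6.24 CPM in TAC NRG, 48.3 ± 3.32 CPM in TAC saline and 53.7 ± 3.67 CPM in sham saline (SD, n = 5 each).

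The 6 decreases comprised 1 of 48 tested Mrpl genes and 5 of 28 tested Mrps genes, but the medians of the log2 differences were -0.13 for Mrpl and -0.15 for Mrps genes. A difference between the subunits was not tested. By origin, 5 of 44 proteins of bacterial type and 1 of 31 mitochondria-specific proteins fell, with medians of -0.13 and -0.15. In this split Mrps36 was left out, and Mrps18a, a paralogue of Mrps18c, was counted as mitochondria-specific. By level, all 6 were among the 38 genes above the median level, where the median was -0.16 and the median SE 0.09. Among the 38 genes at or below the median level 0 fell, with a median of -0.12 and a median SE of 0.11, and 3 of them were lower at an unadjusted p under 0.05, against 14 in the upper set. Precision therefore differed with level between these sets.

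Without overlap between libraries, 7 of 76 genes were lower in TAC saline than in sham, against 3.68% of all genes, and 0 were higher, against 4.72%. These were the 5 Mrps genes above together with Mrpl30 and Mrpl51, a mitochondria-specific large subunit protein named here after its values were seen. Mrpl30 had 336.5, 356.3, 400.2, 344.3 and 298.8 CPM in TAC saline, against 432.2, 429.3, 442.3, 404.1 and 403.2 CPM in sham saline, a log2 difference of -0.29 ± 0.10 (SE) with an adjusted p of 0.0673 in limma, which was 0.0184 to 0.0389 without TAC saline replicate 3 or TAC NRG replicate 3 or 5, 0.0255 without TAC NRG replicates 4 and 5 together and 0.0137 with only the 2 groups compared. Mrpl42 differed by -0.25 ± 0.10 (SE) with an adjusted p of 0.0989, which was 0.0461 without TAC saline replicate 3, 0.0462 without TAC NRG replicate 3 and 0.0435 with only the 2 groups compared. Mrpl51 averaged 176 ± 12.6 CPM in TAC saline and 192 ± 3.39 CPM in sham saline (SD, n = 5 each), a log2 difference of -0.13 ± 0.07 (SE) with an adjusted p of 0.304 in limma. A microRNA gene, Mir3098, is annotated over the 3′ exon of Mrpl51 on the same strand, so reads there could not be told apart. At an unadjusted p under 0.05, 17 members were lower and 0 higher in TAC saline, against 11.5% and 12.7% of all genes.

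The largest fitted decrease was that of Mrpl23, a large subunit protein near the exit of the peptide tunnel, at -0.53 ± 0.26 (SE) with an adjusted p of 0.216 in limma. It had 13 to 26 reads in each TAC saline library and 18 to 35 in each sham library. The members above 0 were led by Mrpl19 at 0.17 ± 0.13 and Mrpl27 at 0.14 ± 0.14 (SE), and neither passed the test.

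**Figure D2:**
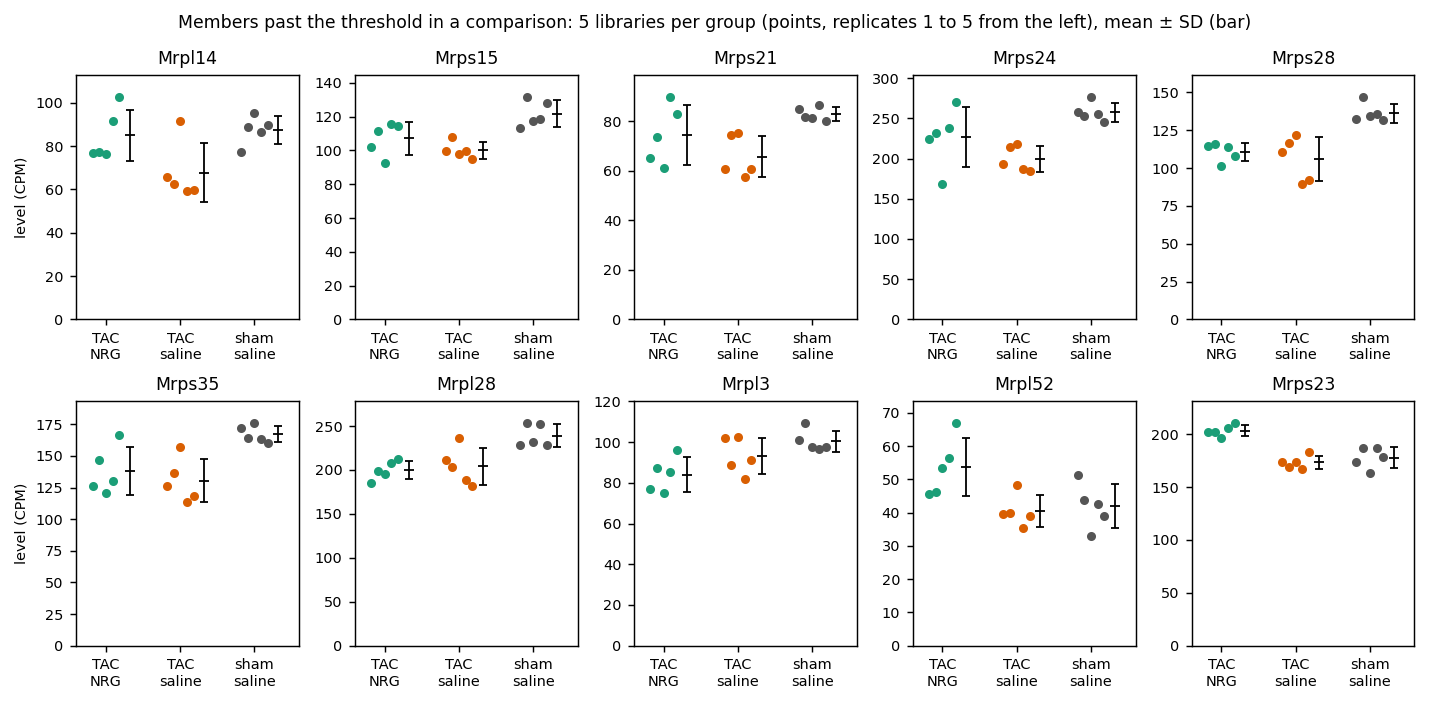
Levels (CPM, axes from 0) of the 10 genes past the threshold in either comparison with sham, with 1 point per library and mean ± SD of 5 libraries per group, in the order TAC NRG, TAC saline and sham saline. In Mrps28 all TAC saline libraries lie between 89.4 and 121.7 CPM, below all sham libraries, and in Mrps23 all TAC NRG libraries lie above both other groups.

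The promoter sequences upstream of the genes that fell are shown because these genes fell in the same comparison. RefSeq entries on GRCm38.p6 were given for 67 of the 76 tested genes, 4 of the 6 among them, and Mrps28 and Mrps35 had none. Each is the 250 bases before the annotated start, read 5′ to 3′ on the gene's strand, with capitals marking matches on either strand to CGCANGCG, the core of the NRF1 site, AAGGTCA, the half-site of ERR factors, or GGGCGG, bound by SP and KLF factors. Mrpl14 lies at chr17:45686099-45686348 on the plus strand, Mrps15 at chr4:126046678-126046927 on the plus strand, Mrps21 at chr3:95871515-95871764 on the minus strand and Mrps24 at chr11:5707702-5707951 on the minus strand.
Mrpl14: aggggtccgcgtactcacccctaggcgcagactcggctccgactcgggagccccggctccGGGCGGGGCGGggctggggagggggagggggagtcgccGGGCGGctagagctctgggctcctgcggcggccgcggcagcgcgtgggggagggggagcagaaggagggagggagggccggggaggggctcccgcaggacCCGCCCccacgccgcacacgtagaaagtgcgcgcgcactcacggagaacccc
Mrps15: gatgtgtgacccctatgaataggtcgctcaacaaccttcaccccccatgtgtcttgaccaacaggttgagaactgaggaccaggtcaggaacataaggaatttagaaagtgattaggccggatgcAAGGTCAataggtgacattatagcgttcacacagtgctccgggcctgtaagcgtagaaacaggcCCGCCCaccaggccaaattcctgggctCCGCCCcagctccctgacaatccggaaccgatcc
Mrps21: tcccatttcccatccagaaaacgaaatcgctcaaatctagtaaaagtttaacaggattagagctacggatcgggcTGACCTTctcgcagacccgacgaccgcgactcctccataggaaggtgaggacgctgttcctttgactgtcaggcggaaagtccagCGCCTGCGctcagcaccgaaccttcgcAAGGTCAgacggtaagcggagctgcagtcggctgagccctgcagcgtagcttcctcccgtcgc
Mrps24: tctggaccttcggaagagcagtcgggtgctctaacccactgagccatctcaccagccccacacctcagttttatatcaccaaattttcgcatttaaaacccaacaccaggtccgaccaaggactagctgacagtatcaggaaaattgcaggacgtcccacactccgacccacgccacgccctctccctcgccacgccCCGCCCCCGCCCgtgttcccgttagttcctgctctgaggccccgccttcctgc

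The Mrpl14 sequence holds GGGCGG at several places, a pair of which overlap by a single base, and the Mrps24 sequence holds a pair of it side by side on the reverse strand. Mrps15 holds GGGCGG and 1 match to AAGGTCA, and Mrps21 holds AAGGTCA matches on both strands and 1 match to CGCANGCG on the reverse strand. The same letters were counted on both strands in windows of 300 bases, the 250 bases shown and 50 bases after the start, in the 67 members and in 8697 tested genes with an entry, where matches to different motifs may overlap. CGCANGCG was in 19 of 67 members (28.4%) and 18.5% of all genes, and AAGGTCA in 4 (5.97%) and 3.01%. CCGGAAG, known for ETS factors, was in 23 (34.3%) and 19.1%, and AAGATGGC, known for YY1, in 12 (17.9%) and 4.97%. GGGCGG was in 33 (49.3%) and 66.5%, CCAAT in 26 (38.8%) and 38.4%, and the E-box CACGTG in 5 (7.46%) and 10.7%. Beside the matches marked above, these windows held CGCANGCG in Mrpl14, CCAAT in Mrps15, CCGGAAG in Mrps21 and AAGATGGC in Mrps24. These matches describe letters in a window, were chosen after the values were seen and say nothing of binding in these hearts.

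With NRG, the ribosomal protein genes as a group lay slightly higher than in TAC saline, but no single gene passed the test. Of 76 genes 0 rose and 0 fell in TAC NRG against TAC saline in limma, where 0.672% of all genes rose and 0.626% fell, 1.3% in all. At an unadjusted p under 0.05, 9 members were higher and 1 lower, against 7.25% and 8.1% of all genes. The log2 difference was above 0 for 64 of the 76 genes, against 49.2% of all genes, and below 0 for the other 12, against 50.8%. It had a median of 0.09 and a range of -0.31 to 0.42, against a median of -0.01 over all genes. Between libraries within groups, the member median had an SD of 0.088, and the shift of the group was not tested. The medians were 0.09 for Mrpl and 0.10 for Mrps genes. Without TAC NRG replicates 4 and 5 together, the median over all 76 genes was 0.05, with 51 genes above 0, against a median of 0.003 over all genes. With mitochondrially encoded reads left out of totals it was 0.04, with 56 genes above 0, against -0.06 over all genes. The TAC saline libraries are shared with the comparison against sham, so the differences of a gene in these comparisons are not independent.

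Mrpl30 came closest to the threshold. It had 454.8, 432.1, 335.6, 494.8 and 560.6 CPM in TAC NRG, against 336.5, 356.3, 400.2, 344.3 and 298.8 CPM in TAC saline, with TAC NRG replicate 3 lying inside the TAC saline range. limma gave a log2 difference of 0.38 ± 0.10 (SE), with an adjusted p of 0.0607. Without TAC NRG replicate 3 the log2 difference was 0.48 with an adjusted p of 0.00304 in limma, and without TAC saline replicate 3 it was 0.43 with an adjusted p of 0.0391. With total reads alone as scaling the adjusted p was 0.0495 in limma.

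Mrps23, a mitochondria-specific small subunit protein, had 201.9, 201.9, 196.5, 206.4 and 210.6 CPM in TAC NRG, against 174.2, 168.8, 173.7, 166.8 and 183.4 CPM in TAC saline. The groups did not overlap, and the TAC NRG libraries lay within a narrow band. This was a log2 difference of 0.23 ± 0.07 (SE), with an adjusted p of 0.0802 in limma.

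Mrps34, a mitochondria-specific small subunit protein, had 53.5, 51.9, 52.9, 57.8 and 60.3 CPM in TAC NRG, against 50.5, 49.6, 51.1, 43.1 and 46.1 CPM in TAC saline. These were also separate, by a small margin, at a log2 difference of 0.20 ± 0.09 (SE) and an adjusted p of 0.304 in limma. Mapk8ip3 is annotated over the 3′ end of Mrps34 on the other strand, and the sources used here do not say whether reads were counted by strand. Mrps23 and Mrps34 were the 2 members higher without overlap, against 1.81% of all genes, and 0 were lower, against 1.25%.

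Mrpl52, a mitochondria-specific large subunit protein, had 45.8, 46.4, 53.4, 56.4 and 67.0 CPM in TAC NRG, against 39.8, 39.9, 48.3, 35.5 and 39.1 CPM in TAC saline. Only TAC saline replicate 3 reached into the TAC NRG range. The log2 difference was 0.40 ± 0.12 (SE), with an adjusted p of 0.0984 in limma.

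Mrpl14 had 76.7, 77.3, 76.5, 91.7 and 102.8 CPM in TAC NRG, above all TAC saline libraries but replicate 3. Its log2 difference between TAC NRG and TAC saline was 0.34 ± 0.11 (SE), with an adjusted p of 0.136 in limma, and without TAC saline replicate 3 it was 0.45 with an adjusted p of 0.0227. The 5 Mrps genes that fell in TAC saline differed by 0.07 to 0.17 on the log2 scale between TAC NRG and TAC saline, with adjusted p of 0.407 or more in limma. The lowest log2 difference was that of Mrpl27, a large subunit protein of bacterial type, which averaged 16.1 ± 2.89 CPM in TAC NRG and 19.8 ± 2.19 CPM in TAC saline (SD, n = 5 each), at -0.31 ± 0.14 (SE) with an adjusted p of 0.302 in limma.

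**Figure D3:**
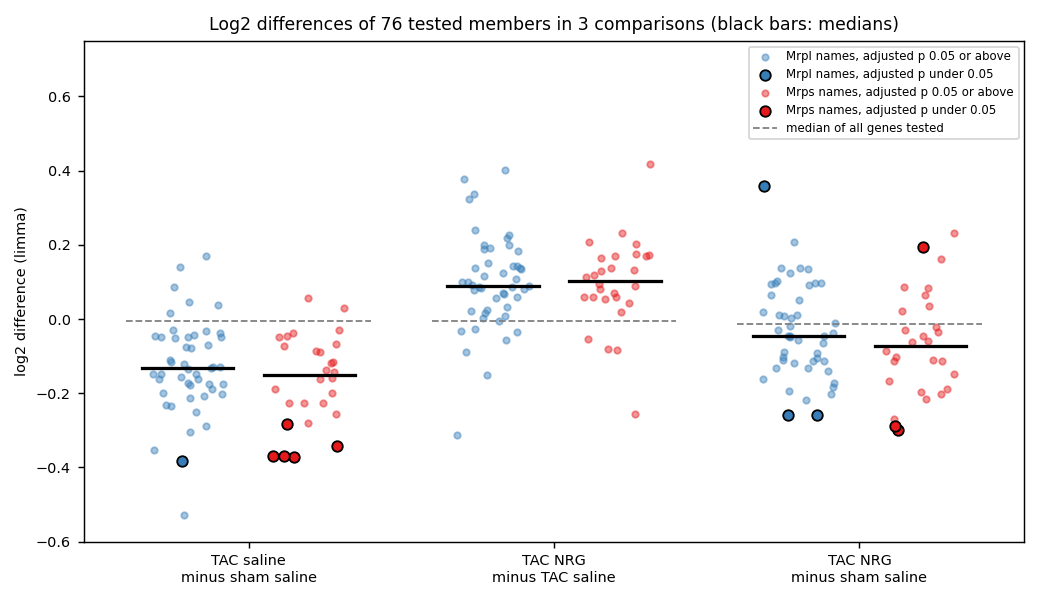
Log2 differences of the 76 tested genes in TAC saline minus sham saline, TAC NRG minus TAC saline and TAC NRG minus sham saline, 1 point per gene, with black bars at the medians of Mrpl and Mrps genes and dashed lines at the median of all 11018 genes. The medians are -0.13 and -0.15 in TAC saline minus sham saline and 0.09 and 0.10 in TAC NRG minus TAC saline, and outlined points passed the test.

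Against sham, a few members passed in TAC NRG hearts, in both directions and in smaller shares than among all genes. Of the 76 genes 2 rose, Mrpl52 and Mrps23, and 4 fell, Mrpl3, Mrpl28, Mrps28 and Mrps35, where 8.74% of all genes rose and 7.39% fell. The log2 difference was below 0 for 49 of the 76 genes, against 52.0% of all genes. The median was -0.05, against -0.01 over all genes, and it was 0.046 when libraries were scaled by total reads alone, where the median of all genes was 0.08. Under that scaling 4 members rose and 0 fell, and 1798 of all genes passed in either direction, against 1777 on the authors' scaling. Without TAC NRG replicate 3 the median was -0.01, against -0.01 over all genes, with libraries thinned to equal depth it was -0.03, and without TAC NRG replicates 4 and 5 together it was -0.10, with 58 genes below 0, 0 that rose and 5 that fell. Leaving out 1 library gave 2 increases without TAC saline replicate 3, 0 or 1 otherwise, and 0 to 5 decreases. There were 0 decreases without sham saline replicate 2, 1 without sham saline replicate 4 or TAC NRG replicate 1 or 3 and 2 without sham saline replicate 1 or 5 or TAC NRG replicate 4. Over all genes, 1338 to 1854 passed in either direction when 1 library was left out, and 1361 without TAC NRG replicates 4 and 5 together. Without overlap, 1 member was higher and 3 lower, against 6.23% and 5.45% of all genes.

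Mrps28 had 114.6, 115.8, 101.2, 114.0 and 108.1 CPM in TAC NRG, all below the 131.5 to 147.1 CPM of sham saline. Its log2 difference was -0.30 ± 0.09 (SE), with an adjusted p of 0.02 in limma, and without sham saline replicate 2 or TAC NRG replicate 3 the adjusted p was 0.0521 to 0.0543. It was 0.0505 in limma without TAC NRG replicates 4 and 5 together, 0.0679 with total reads alone as scaling and 0.135 with libraries thinned to equal depth. Mrps35 had 125.9, 147.1, 120.3, 129.8 and 166.4 CPM in TAC NRG, and replicate 5 lay inside the sham range. Its log2 difference from sham was -0.29 ± 0.09 (SE), with an adjusted p of 0.0369 in limma, and leaving out any one sham library or TAC NRG replicate 1, 3 or 4 gave an adjusted p of 0.0506 to 0.0964. Total reads alone as scaling gave 0.115 and a replicate block 0.0547.

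Mrpl28, a large subunit protein of bacterial type, had 185.6, 198.4, 195.0, 207.8 and 211.9 CPM in TAC NRG, against 228.3, 253.3, 231.8, 252.8 and 228.4 CPM in sham saline, with no overlap. It fell by 0.26 ± 0.08 (SE) on the log2 scale, with an adjusted p of 0.0227 in limma. Without TAC NRG replicate 1 or sham saline replicate 2 or 4 the adjusted p was 0.0586 to 0.0600, and with total reads alone as scaling it was 0.112. In TAC saline Mrpl28 had 181.7 to 236.0 CPM, and its log2 difference between TAC saline and sham was -0.23 ± 0.08 (SE) with an adjusted p of 0.0518 in limma, which was 0.0113 to 0.0491 without TAC saline replicate 3 or TAC NRG replicate 3 or 5 and 0.0430 without TAC NRG replicates 4 and 5 together.

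Mrpl3, whose bacterial counterpart reaches towards the peptidyl transferase centre, had 77.0, 87.07, 75.02, 85.21 and 96.1 CPM in TAC NRG, against 100.8, 109.3, 97.5, 96.6 and 97.4 CPM in sham saline. TAC NRG replicate 5 lay just under the lowest sham library. It fell by 0.26 ± 0.09 (SE) on the log2 scale, with an adjusted p of 0.0427 in limma, and leaving out any one sham library or TAC NRG replicate 1, 3 or 4 gave an adjusted p of 0.0568 to 0.109. Total reads alone as scaling, a replicate block or thinning to equal depth gave 0.0679 to 0.186. Its log2 difference between TAC saline and sham was -0.11 ± 0.09 (SE), and Mrpl3 averaged 84.1 ± 8.49 CPM in TAC NRG, 93.2 ± 8.95 CPM in TAC saline and 100.3 ± 5.30 CPM in sham saline (SD, n = 5 each).

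Mrpl52 and Mrps23 each differed by -0.04 on the log2 scale between TAC saline and sham, and both were higher in TAC NRG. Mrpl52 had 51.3, 43.9, 33.0, 42.6 and 39.0 CPM in sham saline, overlapping the TAC NRG range, and rose in TAC NRG against sham by a log2 difference of 0.36 ± 0.12 (SE) with an adjusted p of 0.0453 in limma. Without sham saline replicate 2, 3, 4 or 5, TAC NRG replicate 3, 4 or 5 or TAC saline replicate 1, 2 or 5 the adjusted p was 0.0504 to 0.141. It was 0.0575 to 0.0734 with only the 2 groups compared, a replicate block or thinning to equal depth, and 0.299 without TAC NRG replicates 4 and 5 together. Mrps23 had 173.6, 186.9, 163.8, 187.2 and 178.5 CPM in sham saline, all below TAC NRG, and rose by a log2 difference of 0.19 ± 0.07 (SE) with an adjusted p of 0.0477 in limma. That call was close to the threshold, and it was lost in 20 of the 25 alternative settings. These were 13 of the 15 fits that left out 1 library, all but those without TAC saline replicate 3 or 5, with an adjusted p of 0.0510 to 0.116 in limma. The others were no filter on low values, mitochondrially encoded reads left out of totals, only the 2 groups compared, a robust spread, a replicate block or thinning to equal depth, with an adjusted p of 0.0573 to 0.0795, and TAC NRG replicates 4 and 5 left out together, with 0.160.

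Members with known roles beyond the 10 genes past the threshold did not pass in any comparison. The stalk proteins, which recruit translation factors, included Mrpl12, also reported to bind the mitochondrial RNA polymerase in human cells, with 149 ± 13.7 CPM in TAC NRG, 135 ± 6.25 CPM in TAC saline and 139 ± 5.49 CPM in sham saline (SD, n = 5 each). The other stalk genes Mrpl10 and Mrpl11 averaged 50.9 ± 8.43 and 76.3 ± 13.2 CPM in TAC NRG, 47.7 ± 2.98 and 68.4 ± 4.99 CPM in TAC saline and 52.1 ± 3.27 and 70.8 ± 6.09 CPM in sham saline. Mrpl10 and Mrpl12 were among 12 members whose 3′ exon is overlapped by a gene on the other strand.

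Among the genes with human disease variants in cardiomyopathy, Mrpl44 averaged 76.4 ± 10.8 CPM in TAC NRG, 69.1 ± 8.07 CPM in TAC saline and 76.5 ± 7.48 CPM in sham saline (SD, n = 5 each). Mrps22 averaged 17.97 ± 4.23, 16.2 ± 2.48 and 19.6 ± 2.53 CPM and Mrps14 64.6 ± 9.03, 62.2 ± 10.2 and 66.9 ± 4.41 CPM in these groups. For all 3 the group ranges overlapped. Mrps16 and Mrps2, small subunit proteins of bacterial type with human disease variants, averaged 161 ± 20.1 and 35.8 ± 4.35 CPM in TAC NRG, 143 ± 12 and 33.6 ± 3.25 CPM in TAC saline and 164 ± 8.81 and 35.3 ± 4.74 CPM in sham saline.

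Some names do not follow the protein's place. Mrps18a and Mrps30 are built into the large subunit in human ribosomes. Mrps18a averaged 111 ± 9.03 CPM in TAC NRG, 110.3 ± 11.5 CPM in TAC saline and 114 ± 9.34 CPM in sham saline, and Mrps30 70.5 ± 8.98, 64.6 ± 3.91 and 75.6 ± 4.59 CPM (SD, n = 5 each). Mrps36, which is a subunit of the 2-oxoglutarate dehydrogenase complex rather than of the ribosome, averaged 9.39 ± 2.12, 11.02 ± 1.12 and 10.8 ± 2.62 CPM. Mrpl58, a peptidyl-tRNA hydrolase that is also part of the large subunit, averaged 50.7 ± 7.30, 43.97 ± 3.82 and 48.1 ± 2.27 CPM, and Mrpl46, a mitochondria-specific protein, 15.1 ± 2.96, 12.8 ± 3.01 and 16.3 ± 2.93 CPM in the same groups.

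Summed over the family, the libraries of the TAC groups were more spread than the sham libraries. The 78 members summed to 5918, 6158, 5308, 6360 and 6571 CPM in TAC NRG, to 5644, 5652, 6203, 5122 and 5312 CPM in TAC saline and to 6278, 6367, 6080, 6339 and 6248 CPM in sham saline. TAC NRG replicate 5 lay above all sham libraries, replicates 2 and 4 within their range and replicate 3 far below it, whereas in TAC saline replicate 3 reached the sham range and replicate 4 was lowest. The SD was 487 CPM in TAC NRG, 412 CPM in TAC saline and 112 CPM in sham saline. The Mrpl sum averaged 3969 ± 325 CPM in TAC NRG, 3657 ± 275 CPM in TAC saline and 4056 ± 82.3 CPM in sham saline, and the Mrps sum 2094 ± 164, 1930 ± 139 and 2206 ± 42.9 CPM (SD, n = 5 each).

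The ratio of the Mrpl sum to the Mrps sum was 1.90 ± 0.035 in TAC NRG, 1.89 ± 0.023 in TAC saline and 1.84 ± 0.034 in sham saline (SD, n = 5 each). Relative to its mean, it varied less than either sum in TAC NRG and TAC saline, and about as much as the sums in sham saline. The median over 76 genes of the log2 difference from the sham mean was -0.06, -0.03, -0.19, 0.05 and 0.06 in TAC NRG replicates 1 to 5, and -0.08, -0.15, 0.02, -0.28 and -0.16 in TAC saline replicates 1 to 5. In TAC saline replicate 4, 73 of the 76 genes lay below the sham mean, and in replicate 3 of that group 36 did. In TAC NRG the count was 63 in replicate 3 and 27 in replicate 5, and in sham saline libraries it was 32 to 49. Of all reads, the family took 0.646% ± 0.040 in TAC NRG, 0.602% ± 0.024 in TAC saline and 0.626% ± 0.011 in sham saline (SD, n = 5 each). TAC NRG replicates 4 and 5, at 0.677% and 0.696%, lay above the sham range of 0.613% to 0.638%. Replicates 1 and 2, at 0.630% and 0.629%, lay within it and replicate 3, at 0.598%, below it. Of reads outside the mitochondrially encoded genes, whose share itself differed between groups, the family took 0.870% ± 0.047, 0.833% ± 0.041 and 0.909% ± 0.016 (SD, n = 5 each). The mean of TAC NRG thus lay above that of sham on the first scale and below it on the second.

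**Figure D4:**
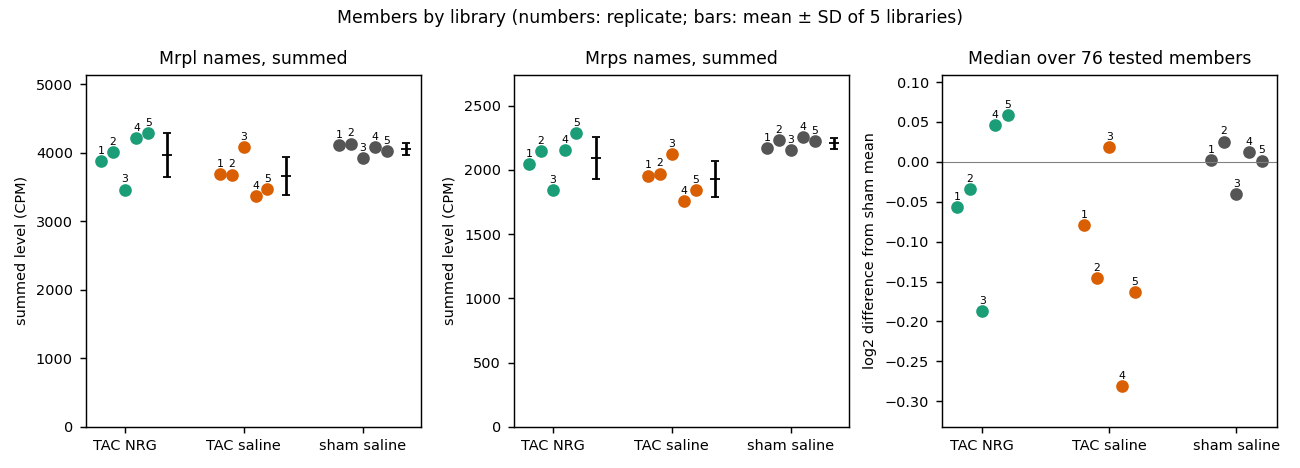
Summed level of Mrpl genes and of Mrps genes per library (CPM, axes from 0) and the median log2 difference of the 76 tested genes from the sham mean, with replicate numbers beside the points and mean ± SD bars of 5 libraries. TAC saline replicate 4 is lowest at -0.28 and TAC saline replicate 3 lies at 0.02, within the sham libraries.

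The other parts of the mitochondrial gene expression system were described from the same fit. Among 82 nuclear genes of respiratory chain and ATP synthase subunits, whose partners the mitochondrial ribosome makes, 24 fell and 0 rose in TAC saline against sham, against 4.24% and 6.47% of all genes, with a median log2 difference of -0.24. Under total reads alone as scaling 9 fell with a median of -0.13, and leaving out 1 library gave 8 decreases without TAC saline replicate 5 to 54 without TAC saline replicate 3. In these 2 leave-out fits 635 and 1495 of all genes passed in either direction, against 1180 with all libraries. Among 88 cytosolic ribosomal protein genes, 1 fell and 2 rose, with a median of -0.03, which was 0.08 under total reads alone as scaling and 0.01 with mitochondrially encoded reads left out of totals. In TAC NRG against TAC saline, 0 respiratory chain genes passed in either direction in limma, with 11 higher and 0 lower at an unadjusted p under 0.05 and a median of 0.12. In the same comparison 1 of the 88 cytosolic ribosomal protein genes rose, against 0.672% of all genes, and 54 were higher and 0 lower at an unadjusted p under 0.05, against 7.25% and 8.1% of all genes. Of these 88 genes 84 lay above 0, with a median of 0.21. Against sham, 9 respiratory chain genes fell in TAC NRG with a median of -0.12, and 20 cytosolic ribosomal protein genes rose and 1 fell with a median of 0.17, against 8.74% of all genes that rose and 7.39% that fell. Without TAC NRG replicates 4 and 5 together, 18 respiratory chain genes fell with a median of -0.22, and 4 cytosolic ribosomal protein genes rose and 1 fell with a median of 0.06. Under total reads alone as scaling, 3 respiratory chain genes fell and 1 rose, and 40 cytosolic ribosomal protein genes rose and 1 fell. Over all genes, 1361 passed in either direction without TAC NRG replicates 4 and 5 together and 1798 under total reads alone, against 1777 with all libraries on the authors' scaling. The median of the mitochondrial ribosomal protein genes thus lay between those of these families in each comparison with sham, and below both in TAC NRG against TAC saline. Without TAC NRG replicates 4 and 5 together, the medians in TAC NRG against TAC saline were 0.05 for mitochondrial ribosomal protein genes, 0.02 for respiratory chain genes and 0.12 for cytosolic ribosomal protein genes. These differences between families were not tested.

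Of 5 mitochondrial ribosomal proteins without the Mrp prefix, Aurkaip1, a small subunit protein, fell in TAC saline, with 75.2 ± 7.86 CPM in TAC saline and 90.4 ± 6.77 CPM in sham saline (SD, n = 5 each), a log2 difference of -0.27 ± 0.09 (SE) and an adjusted p of 0.0444 in limma. Dap3, a GTP-binding small subunit protein, fell in TAC NRG, with 58.3 ± 2.85 CPM in TAC NRG and 71.3 ± 6.48 CPM in sham saline, a log2 difference of -0.29 ± 0.09 (SE) and an adjusted p of 0.0338. Each was 1 of the 5, where 4.24% of all genes fell in TAC saline and 7.39% in TAC NRG against sham. The other comparisons of these 5 genes did not pass. Between TAC saline and sham, Dap3 differed by -0.26 on the log2 scale with an adjusted p of 0.0733 in limma, which was 0.0354 without TAC saline replicate 2. The adjusted p of Aurkaip1 was 0.05002 to 0.142 in limma without sham saline replicate 1, 2, 3 or 4, TAC saline replicate 1, 2, 4 or 5 or TAC NRG replicate 1 or 2, and that of Dap3 was 0.0504 to 0.0882 without sham saline replicate 1, 2 or 4 or TAC NRG replicate 1, 2, 3 or 4. For Aurkaip1 it was also 0.0514 to 0.245 in limma with total reads alone as scaling, no filter, mitochondrially encoded reads left out of totals, a replicate block or thinning to equal depth. For Dap3 it was 0.158 with total reads alone as scaling and 0.135 with thinning.

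Among 20 mitochondrial aminoacyl-tRNA synthetase and amidotransferase genes tested, 2 fell in TAC saline against sham, where 4.24% of all genes fell. Hars2, which charges histidyl-tRNA, averaged 15.5 ± 1.35 CPM in TAC saline and 21.1 ± 2.13 CPM in sham saline (SD, n = 5 each), a log2 difference of -0.44 ± 0.14 (SE) with an adjusted p of 0.0465 in limma. Gatb, a subunit of the amidotransferase that makes glutaminyl-tRNA, averaged 19.6 ± 3.93 CPM in TAC saline and 26.4 ± 4.42 CPM in sham saline, a log2 difference of -0.44 ± 0.14 (SE) with an adjusted p of 0.0455. Cars2, for cysteinyl-tRNA, fell in TAC NRG against sham by 0.38 ± 0.11 (SE) on the log2 scale with an adjusted p of 0.0149. It was the only one of the 20 to pass in that comparison, where 7.39% of all genes fell. The adjusted p in limma was 0.0546 to 0.116 for Hars2 without sham saline replicate 1, 2, 3 or 4, any one TAC saline library or TAC NRG replicate 1, and 0.0507 to 0.142 for Gatb without sham saline replicate 2, 3, 4 or 5, TAC saline replicate 1, 4 or 5 or TAC NRG replicate 1. For Cars2 it was 0.0523 without TAC NRG replicate 3, 0.0554 with total reads alone as scaling and 0.131 with libraries thinned to equal depth. The call was lost in 15 of 25 settings for Hars2 and 12 for Gatb. Beside those above, the settings were total reads alone as scaling, no filter, mitochondrially encoded reads left out of totals and thinning for both genes, and a replicate block for Hars2, with an adjusted p in limma of 0.0582 to 0.165 for Hars2 and 0.0536 to 0.204 for Gatb. In TAC NRG against TAC saline 0 of the 20 passed in limma, and 0 were higher or lower at an unadjusted p under 0.05.

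Lrpprc, an RNA-binding protein that stabilises mitochondrial messages, was 1 of 17 genes of mitochondrial DNA and RNA maintenance. It was the only one to pass, in TAC saline against sham, where 4.24% of all genes fell. It averaged 35.4 ± 4.25 CPM in TAC saline and 45.3 ± 3.20 CPM in sham saline (SD, n = 5 each), a log2 difference of -0.36 ± 0.11 (SE) with an adjusted p of 0.0286 in limma, which was 0.0551 to 0.0896 without sham saline replicate 1, 3 or 5 or TAC saline replicate 1, 4 or 5 and 0.120 with total reads alone as scaling. In TAC NRG against sham Lrpprc differed by -0.30, with an adjusted p of 0.0554 in limma. That was 0.0395 with mitochondrially encoded reads left out of totals, 0.0423 without TAC saline replicate 3 and 0.0431 without TAC NRG replicate 4. Of 25 genes of ribosome assembly and ribosomal RNA modification, Ddx28, an RNA helicase of large subunit assembly, fell in TAC NRG against sham by 0.47 ± 0.16 (SE) on the log2 scale with an adjusted p of 0.0386, and the others did not pass in any comparison. In TAC NRG against sham 7.39% of all genes fell. Without sham saline replicate 3, 4 or 5 or TAC NRG replicate 1, 2 or 4 the adjusted p of Ddx28 was 0.0549 to 0.109 in limma, and it was 0.0548 to 0.117 with total reads alone as scaling, with no filter or without TAC NRG replicates 4 and 5 together. Of 13 translation factor genes 0 passed in limma in any comparison, where an unadjusted p under 0.05 was found for 2 lower and 0 higher genes in each comparison with sham and for 1 higher and 0 lower in TAC NRG against TAC saline, with medians of -0.09 in TAC saline minus sham saline, -0.02 in TAC NRG minus TAC saline and -0.14 in TAC NRG minus sham saline. At that unadjusted p, 11.5% of all genes were lower in TAC saline and 14.6% in TAC NRG against sham. In TAC NRG against TAC saline 7.25% of all genes were higher.

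**Figure D5:**
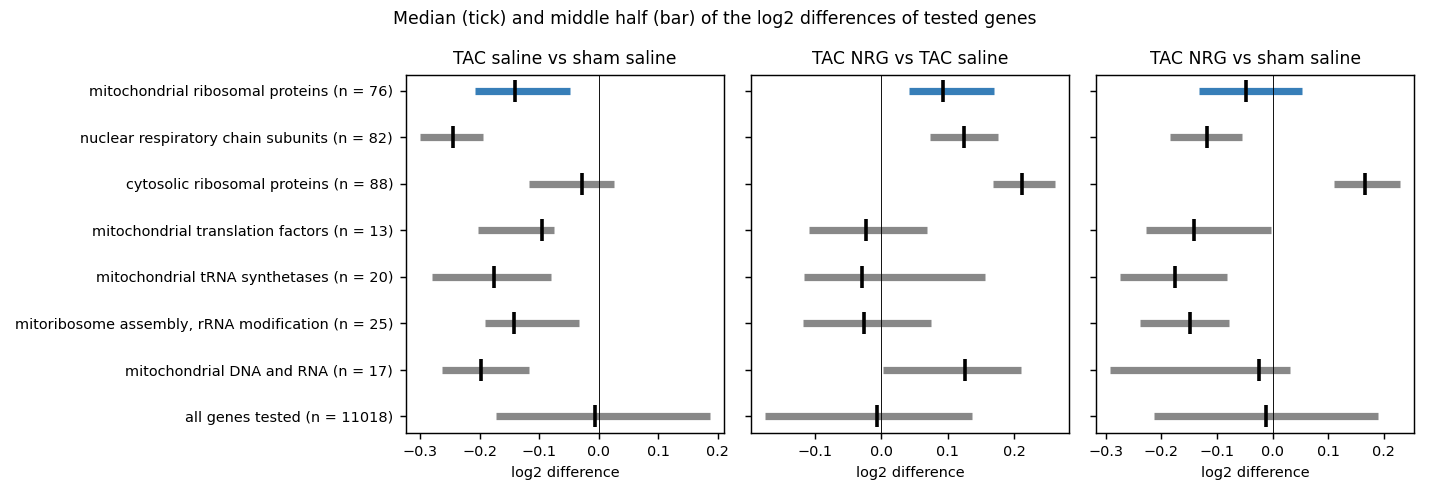
Median (tick) and interquartile range (bar) of the log2 differences of tested genes in TAC saline against sham saline, TAC NRG against TAC saline and TAC NRG against sham saline, for mitochondrial ribosomal proteins, 6 other lists and all genes. Medians for mitochondrial ribosomal proteins are -0.14, 0.09 and -0.05, between those of respiratory chain subunits and cytosolic ribosomal proteins in both comparisons with sham.

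The RNAs that these proteins assemble on were also counted, as 3′ ends, and how fully the assay captures them was not tested. The small subunit RNA mt-Rnr1 had 7046, 8327, 7657, 4221 and 3715 CPM in TAC NRG and averaged 8607 ± 1635 CPM in TAC saline and 12116 ± 1111 CPM in sham saline (SD, n = 5 each for the means). The large subunit RNA mt-Rnr2 had 47658, 57530, 40474, 15652 and 13476 CPM in TAC NRG and averaged 57316 ± 7755 CPM in TAC saline and 66182 ± 5647 CPM in sham saline. TAC NRG replicates 4 and 5, the libraries of that group with the highest summed ribosomal protein level, were lowest for both RNAs. In TAC NRG against sham, mt-Rnr1 fell by 1.04 ± 0.18 (SE) on the log2 scale with an adjusted p of 1.9e-04 in limma, and mt-Rnr2 fell by 1.15 ± 0.27 with an adjusted p of 0.00509. Without TAC NRG replicates 4 and 5 together, the decreases were smaller, with log2 differences of -0.66 for mt-Rnr1 and -0.46 for mt-Rnr2, and adjusted p of 0.00141 and 0.0453 in limma. With all libraries, 4 of 11 tested mitochondrially encoded genes fell in TAC NRG against sham and 0 rose. Among all genes 7.39% fell and 8.74% rose. The 4 were mt-Nd2, mt-Nd5, mt-Rnr1 and mt-Rnr2. In TAC saline against sham, mt-Rnr1 differed by -0.51 on the log2 scale with an adjusted p of 0.0613 in limma. That passed in some alternative settings, with 0.00411 for only the 2 groups compared and 0.00425 without TAC NRG replicates 4 and 5 together. In TAC NRG against TAC saline, mt-Rnr2 differed by -0.93 on the log2 scale with an adjusted p of 0.0873 in limma. It was 0.0432 without TAC NRG replicate 1 and 0.0182 without TAC NRG replicate 2.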

How the data were processed

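Per the labels' protocols, Tri Reagent extracts of frozen left ventricle went into MERCURIUS BRB-seq 3′-end libraries, and all 15 libraries carry batch label 1. The genome build was GRCm39, per the submitters' processing notes. The sources used here do not name the aligner, read counter or counting strand. By their spacing, the authors' deposited values are log2 of reads plus 0.5, scaled by library, and 98.9% to 99.5% of values per library gave a read count within 0.05 of a whole number. CPM are the deposited values out of the log, divided by 1000. These carry the authors' scaling.

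Genes with at least 2.95 CPM (10 reads in the median library) in 5 libraries and 15 reads in all were tested, which kept 11018 of 15258. A limma fit (version 3.58.1, R 4.3.3) whose spread followed a trend on level was made to the log2 values of all 15 libraries without covariates, two-sided, with Benjamini-Hochberg adjustment over all genes tested and a threshold of 0.05. The script was tested on simulated data. Libraries of a group were not duplicates. Named genes were those past the threshold, the 3 highest and 3 lowest members of each subunit in sham hearts, members with known roles, and genes of the related lists past the threshold. Members and lists were chosen with earlier results of these data known. Overlapping genes were taken from GENCODE vM21 on GRCm38 by name, and promoters from RefSeq GRCm38.p6. Python 3.11.15 served for tables and plots, through numpy 2.4.6, pandas 2.3.3, matplotlib 3.10.9 and scipy 1.17.1. Alternatives covered scaling, filter, mitochondrially encoded reads, groups in the fit, spread, replicate numbers, threshold, depth and leaving out libraries.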

Additional observations from a re-analysis of the deposited data

Results flagged for a closer look

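Of 102 sets of 5 libraries examined for 1 library far from the others, 4 stood out by Dixon's criterion at the 95% level, and chance gives about 1 in 20. Mrpl14 in TAC saline replicate 3 was at 91.6 CPM, against 59.2 to 65.8 CPM in the other TAC saline libraries. Mrpl44 in TAC NRG replicate 3 was at 57.4 CPM, against 77.7 to 83.3 CPM in the other TAC NRG libraries. Mrps18c in TAC saline replicate 1 was at 8.24 CPM, against 4.33 to 5.41 CPM in the other TAC saline libraries. Mrps28 in sham saline replicate 2 was at 147 CPM, against 131.5 to 135.6 CPM in the other sham libraries.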

How the results depend on the processing

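For TAC saline against sham, 3 members fell and the median log2 difference was -0.030 when libraries were scaled by total reads alone, which moved the median of all genes to 0.10. At an adjusted p of 0.1, 10 members fell, where 1735 of the 11018 genes tested passed in either direction, against 1180 at 0.05. Leaving out 1 library at a time gave 3 to 12 decreases, 0 increases and medians of -0.16 to -0.09, and 635 to 1495 of all genes passed in either direction. There were 3 decreases without sham saline replicate 2 or 5 or TAC saline replicate 1 or 5, 12 without TAC saline replicate 3 and 10 without TAC NRG replicate 3. For TAC NRG against TAC saline, 1 member rose under total reads, Mrpl30, and 3 rose at an adjusted p of 0.1, Mrpl30, Mrpl52 and Mrps23. Over all genes, 109 passed under total reads and 353 at 0.1, against 143 at 0.05 on the authors' scaling. Leaving out 1 library gave 0 to 2 increases, 0 decreases and medians of 0.06 to 0.14, with 2 increases without TAC saline replicate 3 and 1 without TAC NRG replicate 3. In these fits 58 to 229 of all genes passed. For TAC NRG against sham, total reads alone gave 4 increases, 0 decreases and a median of 0.046, where 1798 of all genes passed, against 1777 on the authors' scaling. The number of increases was 1 with no filter, with mitochondrially encoded reads left out of totals or with a robust spread. It was 0 with only the 2 groups compared, with libraries thinned to 2017468 reads (2 decreases) or without TAC NRG replicates 4 and 5 together. Leaving out 1 library gave 0 to 2 increases, 0 to 5 decreases, the 0 without sham saline replicate 2, and medians of -0.07 to -0.01. In these fits 1338 to 1854 of all genes passed. The cause of these shifts was not tested.

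Same-numbered libraries did not deviate together, with correlations of -0.25 to 0.08 over 15 pairs, 0 of them above 0.1. In 4 of the 15 pairs the same number gave the highest correlation. These were replicate 1 in every pair of groups and replicate 3 in TAC saline with sham saline. With replicate number as a block, 5 members fell in TAC saline against sham, 0 rose or fell in TAC NRG against TAC saline, and 0 rose and 2 fell in TAC NRG against sham. Over all genes, 1049, 111 and 1645 passed with this block in these comparisons. No single-gene result changed direction under the 25 alternatives run while past the threshold. The member median in TAC NRG against sham changed sign, from -0.05 to 0.046 under total reads alone. The 21 calls on single genes were kept in 366 of the 525 values that the alternatives gave and lost in 159, and of 2400 values of single genes without a call 47 passed. A pair of planned count models was not run, although whole reads could be recovered from most of the deposited log2 values. With a median of about 214 reads a gene in TAC NRG, 202 in TAC saline and 219 in sham saline, counting alone gave a median CV of 6.83%, 7.03% and 6.76%, against 10.6%, 10.5% and 8.19% measured.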
